A study of Mus musculus with 6 samples.

Results

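TFE3, TFEB and MITF belong to the MiT family of basic helix-loop-helix factors, which switch on lysosome and autophagy genes, and 41 genes around them were followed: the 3 factors themselves, the folliculin and Rag GTPase genes that hold them at the lysosome, and lysosomal and autophagy genes known as their targets. The members were taken as a named list and found by symbol among the 53390 annotated genes with a matched transcript, and all 41 passed the filter on low counts that left 18177 genes for testing. The mouse embryonic stem cells came from a TKO line that lacks Dnmt1, Dnmt3a and Dnmt3b, the DNA methyltransferases, in every library. In TKO_serum, 3 libraries, the cells grew in high-glucose DMEM with 15% FCS, non-essential amino acids, sodium pyruvate, penicillin and streptomycin, beta-mercaptoethanol and LIF at 500 U/ml. In TKO_2i, 3 libraries, they grew without serum in N2B27 medium with BSA, monothioglycerol, penicillin and streptomycin, 1 uM PD0325901, which inhibits MEK, 3 uM CHIR99021, which inhibits Gsk3 beta, and 1000 U/ml of LIF. Both media held penicillin, streptomycin and LIF. They differed in the dose of LIF and in the other listed components at once, so single contributions cannot be told apart. Poly(A)-selected RNA was sequenced, and the total of estimated counts lay between 38274042 and 51932739 per library.

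In mammalian cells nutrient-rich lysosomes recruit MiT factors through Rag GTPases, whose RagC and RagD subunits are set by folliculin with its FNIP partners, and mTORC1 there phosphorylates the factors so that they stay in the cytoplasm. GSK3 phosphorylation also favours their retention outside the nucleus. In mouse embryonic stem cells, nuclear TFE3 is known to sustain self-renewal, and folliculin with FNIP1 or FNIP2 sends it to the cytoplasm when cells leave pluripotency. Messenger RNA levels carry no information on where the proteins are, and no protein was measured here.

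Dnmt1 transcripts were present at 29.1, 34.6 and 29.3 TPM in TKO_2i replicates 1, 2 and 3 and at 25.7, 28.6 and 27.9 TPM in the TKO_serum replicates, Dnmt3a at 4.30, 5.19 and 4.54 against 21.3, 23.0 and 22.7 TPM, and Dnmt3b at 6.71, 9.53 and 8.49 against 18.8, 20.9 and 20.7 TPM. TPM is the level of a gene's transcripts per length, scaled to the same total in each library. The deleted exons were not mapped here, so these summed levels do not check the genotype. The markers of the labelled cell type were present: all 8 genes of the list were expressed, Pou5f1 was the most abundant at 1057, 982 and 1012 TPM in TKO_2i and 1249, 1249 and 1253 TPM in TKO_serum, and the summed level of the list was 2861, 2854 and 2705 against 3354, 3432 and 3375 TPM. In the test described below, 2 of the 8 were higher in TKO_2i and 4 lower, beside 31.9% and 30.6% of all tested genes. Nanog and Esrrb were higher, with log2 fold changes of 0.60 and 0.33, and the tested genes of chromosome 6, where Nanog lies, had a median of 0.41. Utf1, Dppa4, Sox2 and Zfp42 were lower, at -1.33, -1.07, -0.41 and -0.40. Pou5f1 and Fbxo15 were not called.

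Most of the 41 genes differed between the media. In edgeR's quasi-likelihood test across all tested genes, called at a Benjamini-Hochberg adjusted p under 0.05, 33 of 41 were called, 80.5%, beside 62.5% of all tested genes. Of these, 22 were higher in TKO_2i, 53.7% of the members beside 31.9% of all tested genes, and 11 were lower, 26.8% beside 30.6%. Lysosomal genes are well expressed, with a median of 30.5 TPM among the members and 7.51 TPM among all tested genes. CPM is the count scaled to library size without regard to length, and among the 13997 tested genes that averaged 1 CPM or more the background was 66.7% called, 37.9% higher and 28.8% lower, and all 41 members reached that level. The CPM of the conditions did not overlap for 33 members, 80.5%, beside 67.5% of all tested genes. In bulk RNA, fewer cells of one type and less RNA per cell cannot be told apart.

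The sizes of the changes were moderate for most members. The median log2 fold change of TKO_2i over TKO_serum was 0.22 over the members and 0.01 over all tested genes (0.12 and -0.06 in limma on log2(TPM + 1)), while the median absolute value was 0.41 and 0.44. A fold of at least 2 was reached by 7 called members that were higher, 17.1% beside 7.72% of all tested genes, and by 3 that were lower, 7.32% beside 15.6%. The summed level of the 41 genes was 2605, 2712 and 2556 TPM in TKO_2i and 2232, 2320 and 2296 TPM in TKO_serum, so that every TKO_2i library lay above every TKO_serum library. On log2(TPM + 1) with limma, 17 members were higher, 41.5% beside 23.2% of all tested genes, and 13 lower, 31.7% beside 32.1%, so the members and all tested genes both had fewer higher calls than by counts. Exons of 6 members overlap an antisense gene with over 10% of their TPM, among them Ctsb with Fdft1, Ctsz with Nelfcd, Lamp1 with Grtp1 and Sgsh with Card14. The libraries were prepared with a strand-specific kit, but whether strand was used in quantification is not given in the sources used here, so reads of these pairs may not be told apart.

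**Figure D1:**
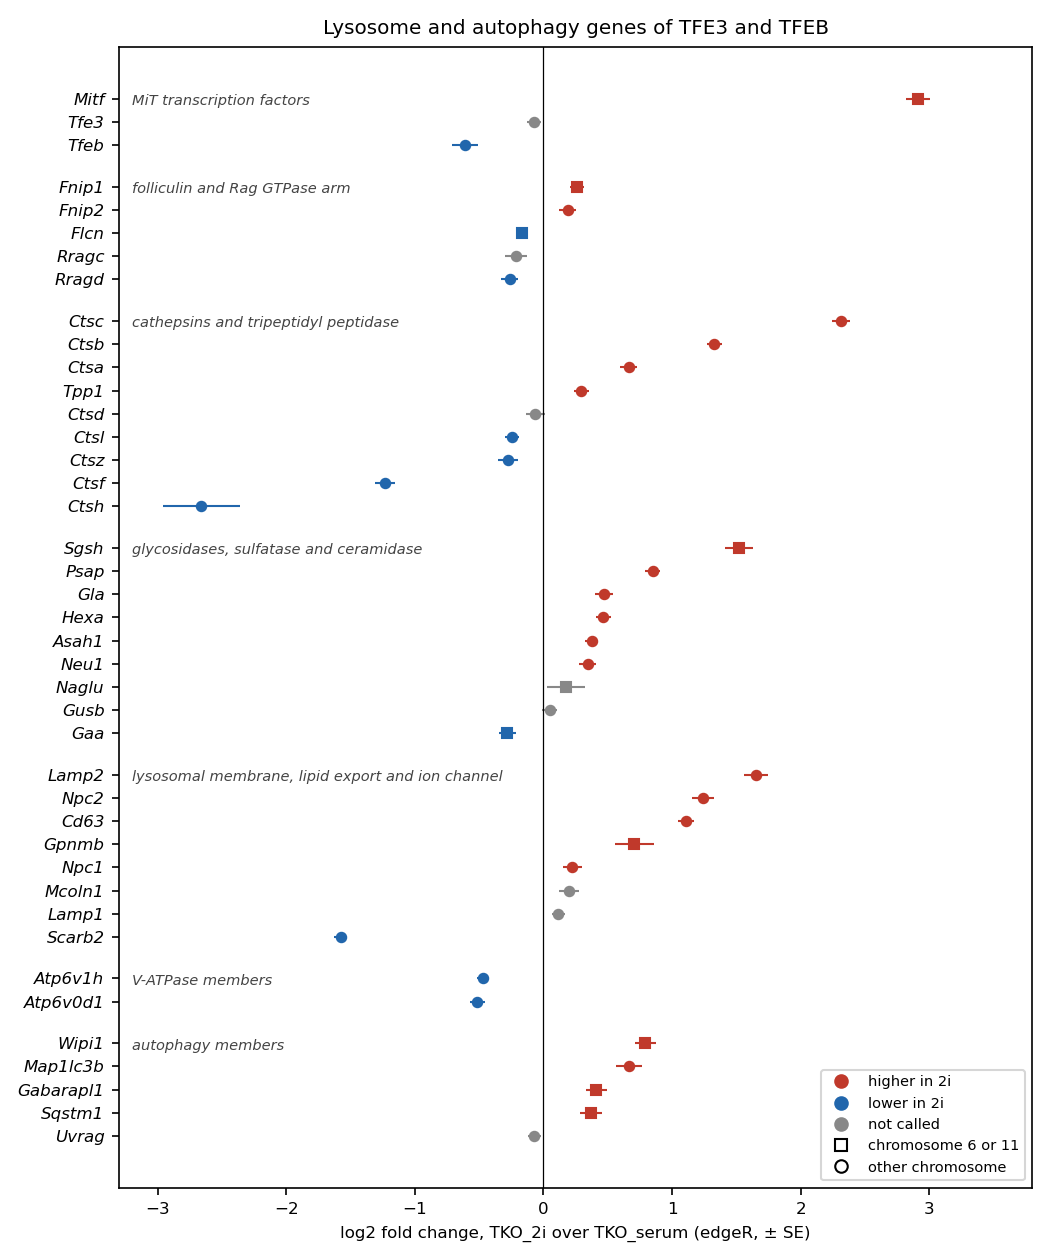
log2 fold change of each of the 41 genes, TKO_2i over TKO_serum, from edgeR with its standard error, grouped by role; red and blue points passed the test as higher or lower, grey points did not, and squares lie on chromosomes 6 and 11. Mitf, Ctsc and Lamp2 stand furthest to the right at 2.91, 2.32 and 1.65, and Ctsh, Scarb2 and Ctsf furthest to the left at -2.66, -1.58 and -1.23.

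The 3 factors went separate ways. Mitf, the factor best known from the melanocyte lineage, was at 18.3, 24.2 and 20.1 TPM in TKO_2i replicates 1, 2 and 3 and at 3.01, 3.06 and 3.42 TPM in the TKO_serum replicates. Every TKO_2i library was far above every TKO_serum library, and by counts the gene rose 7.54-fold (log2 fold change 2.91, SE 0.09, edgeR adjusted p = 8.87e-08). Tfeb, chr17:47737030-47792419, was at 17.8, 17.8 and 17.8 TPM in TKO_2i and at 30.6, 29.8 and 32.1 TPM in TKO_serum. In TPM the TKO_2i libraries were level with each other and below all TKO_serum libraries. Its CPM varied more, at 33.2, 26.7 and 33.5 against 50.6, 42.3 and 49.6, also without overlap, a fall to 0.655 of the serum level by counts (log2 fold change -0.61, SE 0.10, edgeR adjusted p = 0.000883).

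Tfe3, chrX:7762560-7775202, had the highest level of the 3 in each library. Its level was 36.4, 42.4 and 38.9 TPM in TKO_2i and 47.2, 53.1 and 50.0 TPM in TKO_serum, without overlap. Its CPM did overlap, at 87.5, 87.5 and 93.4 against 91.6, 93.3 and 97.7, and the count test did not call it (log2 fold change -0.07, SE 0.06, edgeR adjusted p = 0.270). Counts scaled by transcript length gave -0.26 in edgeR (adjusted p = 0.00315), and log2(TPM + 1) in limma gave -0.35 (adjusted p = 0.00568), so whether Tfe3 is called lower depends on whether transcript length enters. Its forms differ in length, and the shares of all 4 forms that held at least 10% shifted without overlap (exact permutation p = 0.1 for each). Tfe3-201, chrX:7762658-7775202, with 3277 bases, carried 32.0%, 26.3% and 22.7% of Tfe3 TPM in TKO_2i and 18.1%, 16.8% and 18.9% in TKO_serum, and Tfe3-214, chrX:7763943-7766792, with 408 bases, carried 14.4%, 15.5% and 10.99% against 25.6%, 25.7% and 22.6%. Tfe3-205, with 2658 bases, carried 16.9%, 17.9% and 24.1% against 15.6%, 14.0% and 11.3%, and Tfe3-204, with 2943 bases, 24.6%, 26.1% and 24.2% against 26.8%, 28.1% and 27.9%.

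As a share of the summed TPM of the 3 factors, Tfe3 held 50.2%, 50.2% and 50.7% in TKO_2i and 58.4%, 61.8% and 58.5% in TKO_serum. Mitf held 25.2%, 28.7% and 26.1% against 3.72%, 3.56% and 4.01%, and Tfeb 24.6%, 21.1% and 23.2% against 37.9%, 34.7% and 37.5%. The sum itself was 72.5, 84.5 and 76.8 TPM in TKO_2i and 80.8, 86.0 and 85.5 TPM in TKO_serum. The sums overlapped while the make-up did not: in TKO_serum the order was Tfe3, Tfeb and then Mitf in each library, and in TKO_2i Mitf was above Tfeb in each library. Tfec, the remaining MiT gene and not a member, had no counts in any TKO_2i library and 0.330, 0.241 and 0.268 TPM in TKO_serum, at least 4.98-fold higher against a floor of 3 counts per library.

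**Figure D2:**
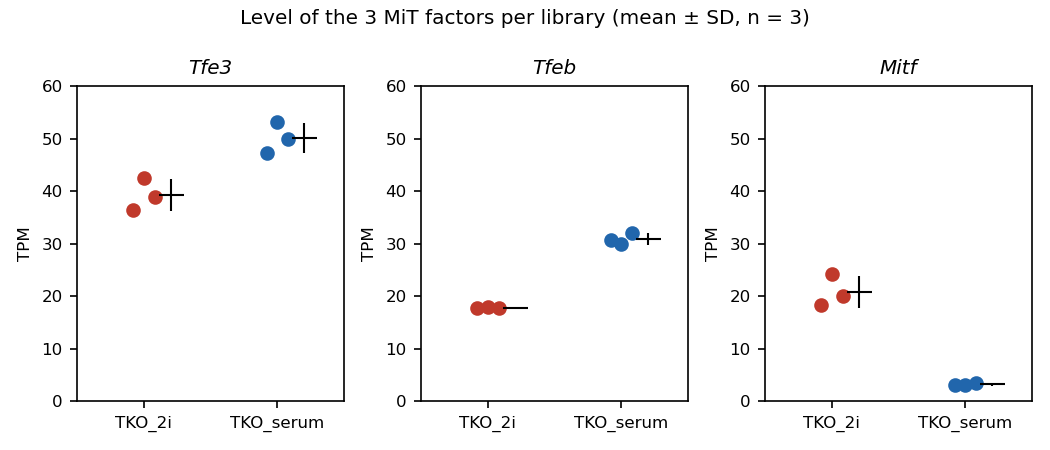
TPM of Tfe3, Tfeb and Mitf in each library, with the mean and SD of 3 replicates in black. Mitf lies at 18.3 to 24.2 TPM in TKO_2i and 3.01 to 3.42 TPM in TKO_serum, while Tfeb lies at 17.8 TPM in TKO_2i and 29.8 to 32.1 TPM in TKO_serum.

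Mitf lies at chr6:97807052-98021349, and chromosome 6 as a whole was shifted upward, with a median log2 fold change of 0.41 over its 866 tested genes. Chromosome 11 had a median of 0.26 over 1399 genes, and the medians of the other autosomes and X ran from -0.15 to 0.05. The difference of Mitf exceeded its chromosome's median by 2.50. Of the 10 members on these chromosomes, Mitf, Gpnmb and Gabarapl1 on 6 and Flcn, Fnip1, Gaa, Naglu, Sgsh, Sqstm1 and Wipi1 on 11, 7 were higher and 2 lower, beside 52.5% and 19.8% of the 2265 tested genes there. Of the 31 members elsewhere, 15 were higher and 9 lower, beside 29.0% and 32.1% of 15912. The median log2 fold change was 0.39 for the 10 and 0.19 for the 31, and over all 41 it was 0.14 after each gene's chromosome median was subtracted. Among genes that averaged 1 CPM or more, as all members did, the median was 0.07 over all chromosomes, 0.50 on chromosome 6 and 0.30 on chromosome 11. The part of the chromosome shifts in the single genes was not tested.

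Melanocyte genes did not rise with Mitf. Of the 6 markers, 4 were tested, none was higher and 3 were lower in TKO_2i, beside 31.9% and 30.6% of all tested genes. Their summed level was 20.9, 21.7 and 23.6 TPM in TKO_2i and 40.2, 37.1 and 40.1 TPM in TKO_serum. Pmel, a melanosome matrix protein, was the most abundant, at 15.7, 16.8 and 17.7 against 29.4, 27.5 and 31.4 TPM. The pigment enzyme genes Tyr, Dct and Tyrp1 stayed at or below 0.291 TPM in each library, and Tyrp1 had no counts in TKO_2i.

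The annotated transcripts show which form of Mitf was present. Mitf-202, whose start at chr6:97807058 is the most upstream of the 2 forms that held at least 10% of the gene, carried 74.6%, 76.5% and 75.2% of Mitf TPM in TKO_2i and 65.9%, 70.7% and 65.1% in TKO_serum. Mitf-208, which starts downstream at chr6:97991921, carried 21.5%, 16.9% and 19.7% against 25.8%, 25.1% and 29.5%. The long form was thus the main form in all 6 libraries, with a larger share in each TKO_2i library (exact two-sided permutation p = 0.1, the smallest that 3 against 3 can give). RefSeq lists 3 promoters for Mitf on GRCm38.p6, and the 150 bases before the start of Mitf-202, chr6:97806908-97807058 on the plus strand, are shown because this start gives most of the transcripts that rose, with the first transcribed base in capitals.
Mitf-202 promoter: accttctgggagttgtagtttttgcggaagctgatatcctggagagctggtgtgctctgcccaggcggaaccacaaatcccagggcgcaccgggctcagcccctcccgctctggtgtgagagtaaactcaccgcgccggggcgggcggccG

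The folliculin and Rag genes changed little. Flcn, the GTPase activator for RagC and RagD, was at 25.1, 28.6 and 24.4 TPM in TKO_2i and 30.0, 32.9 and 32.2 TPM in TKO_serum. All TKO_2i libraries were lower, by a log2 fold change of -0.17 (SE 0.05, edgeR adjusted p = 0.0122), on a chromosome whose median was 0.26. The call of Flcn was lost without TKO_2i replicate 3 (adjusted p = 0.0635), TKO_serum replicate 1 (0.0599) or TKO_serum replicate 3 (0.0517). Of its binding partners, Fnip1 was at 21.3, 24.5 and 21.1 TPM in TKO_2i and 19.6, 19.9 and 19.5 TPM in TKO_serum. It was higher in every TKO_2i library (log2 fold change 0.26, SE 0.05, edgeR adjusted p = 0.00279), as large as the median of 0.26 of its chromosome 11 and below the 0.30 of its genes that averaged 1 CPM or more, and the call was lost in limma on log2(TPM + 1) (0.17, adjusted p = 0.0905).

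Fnip2 was at 16.4, 20.97 and 17.7 TPM in TKO_2i and at 16.0, 17.4 and 16.9 TPM in TKO_serum. Its TPM overlapped, and its call as higher (log2 fold change 0.19, SE 0.07, edgeR adjusted p = 0.0376) was lost without TKO_2i replicate 2 (0.0522) or 3 (0.0789) or without TKO_serum replicate 1 (0.100), 2 (0.0888) or 3 (0.0792), and in limma on log2(TPM + 1) (0.345). Of the Rag GTPases that carry the factors to the lysosome, Rragc was at 24.1, 32.7 and 25.2 TPM in TKO_2i and 30.8, 37.0 and 33.1 TPM in TKO_serum. TKO_2i replicate 2 lay within the TKO_serum range and the gene was not called (log2 fold change -0.21, SE 0.09, edgeR adjusted p = 0.0651), although it was called lower without that library (log2 fold change -0.31, adjusted p = 0.00101), with counts scaled by transcript length (-0.21, adjusted p = 0.0419) and in other refits. Over the main fit and the refits the log2 fold change of Rragc ran from -0.31 to -0.16. Rragd was at 11.1, 13.5 and 11.7 TPM in TKO_2i and 13.8, 16.9 and 15.4 TPM in TKO_serum. All TKO_2i libraries were lower (log2 fold change -0.26, SE 0.07, edgeR adjusted p = 0.00763).

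The cathepsins, the proteases of the lysosome, were spread in both directions: of 8 cathepsins and the tripeptidyl peptidase Tpp1, 4 were higher, 4 lower and 1 was not called, beside 31.9% and 30.6% of all tested genes, with a median log2 fold change of -0.06. Ctsc, which activates serine proteases by removing dipeptides, was at 31.3, 29.4 and 27.5 TPM in TKO_2i and 7.21, 5.82 and 6.81 TPM in TKO_serum. The conditions were far apart (4.98-fold, log2 fold change 2.32, SE 0.07, edgeR adjusted p = 6.31e-08). Ctsb, a cysteine protease, was at 105, 107 and 105 TPM in TKO_2i and 44.8, 46.3 and 44.8 TPM in TKO_serum. It was higher in every TKO_2i library (2.51-fold, log2 fold change 1.33, SE 0.06, edgeR adjusted p = 4.05e-07). Most of its TPM lay on the retained-intron model Ctsb-202, at 55.6%, 54.4% and 55.0% in TKO_2i and 56.9%, 55.2% and 55.1% in TKO_serum, so its level against other genes is uncertain while its share did not separate the conditions.

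The largest fall of any member by counts was that of Ctsh, an aminopeptidase, and it was also the least expressed of the 8 member cathepsins. It was at 0.269, 0.459 and 0.160 TPM in TKO_2i and 1.78, 1.31 and 2.58 TPM in TKO_serum. The conditions did not overlap (log2 fold change -2.66, SE 0.30, edgeR adjusted p = 8.11e-05), but its reads were divided among transcripts that changed from library to library. On log2(TPM + 1), where 1 TPM added to so low a level shrinks the change, limma gave -1.14, less than the -1.56 of Scarb2, and on log2(TPM + 0.1) it gave -2.35. Ctsf, a cysteine protease, was at 3.61, 3.82 and 3.19 TPM in TKO_2i and 8.61, 9.24 and 9.11 TPM in TKO_serum. All TKO_2i libraries were lower (log2 fold change -1.23, SE 0.08, edgeR adjusted p = 2.95e-06). Ctsz, a carboxypeptidase, was at 35.8, 35.1 and 32.0 TPM in TKO_2i and 44.6, 46.0 and 45.0 TPM in TKO_serum. It too was lower in each TKO_2i library (log2 fold change -0.27, SE 0.08, edgeR adjusted p = 0.0157), a call lost without TKO_2i replicate 3 (0.0679), TKO_serum replicate 1 (0.0649) or TKO_serum replicate 3 (0.0525).

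Ctsd, the aspartic protease, had the highest mean level of the member cathepsins at 150.1 TPM over the 6 libraries and a log2 fold change of -0.06 by counts, not called. Its TPM was lower in every TKO_2i library, at 145, 142 and 138 against 157, 159 and 161 TPM, and limma on log2(TPM + 1) called it lower (-0.17, adjusted p = 0.0109). Ctsl had -0.24, and the rises of Ctsa and Tpp1 were 0.66 and 0.29. The TPM of Tpp1 overlapped, and its call was lost in limma on log2(TPM + 1) (0.08, adjusted p = 0.569) and with counts scaled by transcript length (0.17, adjusted p = 0.0861). Tpp1-201, an annotated protein-coding form, took 72.8%, 62.9% and 66.6% of Tpp1 TPM in TKO_2i and 47.1%, 49.2% and 56.6% in TKO_serum, and the shares did not overlap (exact permutation p = 0.1). The summed level of the 9 genes was 589.7, 596 and 565 TPM in TKO_2i and 528, 538 and 544 TPM in TKO_serum, slightly higher in every TKO_2i library. This sum includes Ctsb, at 105, 107 and 105 against 44.8, 46.3 and 44.8 TPM, whose level against other genes is uncertain.

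Of 9 genes for the breakdown of glycans and sphingolipids 6 were higher, 1 was lower and 2 were not called, with a median log2 fold change of 0.38, beside 31.9% higher, 30.6% lower and a median of 0.01 over all tested genes. Sgsh, the sulfamidase of heparan sulfate breakdown, was at 1.74, 2.35 and 2.04 TPM in TKO_2i and 0.743, 0.729 and 0.820 TPM in TKO_serum. It was low in all libraries and higher in each TKO_2i one (2.87-fold, log2 fold change 1.52, SE 0.11, edgeR adjusted p = 5.76e-06), and limma gave 0.78 on log2(TPM + 1), under a fold of 2, and 1.30 on log2(TPM + 0.1). Psap, the precursor of the saposins that present sphingolipids to hydrolases, was at 160.1, 165 and 153 TPM in TKO_2i and 91.5, 97.0 and 96.9 TPM in TKO_serum. Each TKO_2i library was higher (1.80-fold, log2 fold change 0.85, SE 0.06, edgeR adjusted p = 4.74e-06). Gaa, the acid alpha-glucosidase of glycogen, was the member that fell, from 52.2, 55.5 and 57.6 TPM in TKO_serum to 37.4, 40.2 and 37.98 TPM in TKO_2i. The groups did not overlap (log2 fold change -0.28, SE 0.07, edgeR adjusted p = 0.00528), and its chromosome 11 had a median of 0.26. Across the main fit and the refits the log2 fold change of Gaa ran from -0.51 to -0.23.

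The other 4 called enzymes rose by less than 0.5 on the log2 scale: 0.47 for Gla, 0.47 for Hexa, 0.38 for Asah1 and 0.34 for Neu1. The lowest values over the refits were 0.30 for Gla, 0.37 for Hexa and 0.19 for Asah1. The retained-intron model Asah1-203 carried a mean of 41.2% of Asah1 TPM in TKO_2i and 42.2% in TKO_serum. The call of Neu1 was lost in limma on log2(TPM + 1) (0.17, adjusted p = 0.163). Gusb and Naglu were not called, at 0.05 and 0.18. Gusb had a steady level, yet its annotated nonsense-mediated decay form Gusb-206 took 16.8%, 16.1% and 12.7% of its TPM in TKO_2i and 5.97%, 6.47% and 3.24% in TKO_serum, without overlap (exact permutation p = 0.1). The summed level of the 9 genes was 453, 479.9 and 441 TPM in TKO_2i and 363, 378 and 379 TPM in TKO_serum. Every TKO_2i library was above every TKO_serum library.

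At the lysosomal membrane the 2 LAMP glycoproteins behaved differently. Lamp1, the member with the highest TPM in every library, was at 462, 475 and 456 TPM in TKO_2i and 447, 478 and 452 TPM in TKO_serum. The libraries overlapped and it was not called (log2 fold change 0.12, SE 0.05, edgeR adjusted p = 0.0859), although it was called higher without TKO_2i replicate 2 (log2 fold change 0.16, adjusted p = 0.00399) and with a replicate block (adjusted p = 0.0401). Across the main fit and the refits the log2 fold change of Lamp1 ran from 0.02 to 0.16. Lamp2, which also serves chaperone-mediated autophagy, was at 43.4, 53.9 and 42.0 TPM in TKO_2i and 16.0, 16.9 and 16.1 TPM in TKO_serum. Every TKO_2i library was higher (3.14-fold, log2 fold change 1.65, SE 0.09, edgeR adjusted p = 1.58e-06).

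Lamp2 makes proteins with different tails by the choice of its last exon, and the transcript shares moved as well. Lamp2-202, chrX:38419507-38456454 on the minus strand, carried 81.0%, 81.1% and 79.8% of Lamp2 TPM in TKO_2i and 64.4%, 73.2% and 72.7% in TKO_serum. Lamp2-201, chrX:38405062-38456454, with a last exon further downstream, carried 12.8%, 12.6% and 13.3% against 28.9%, 19.7% and 21.1%. Both shares were without overlap (exact permutation p = 0.1). Over all members, 50 transcripts of 20 genes with at least 2 forms at a mean share of 10% or more were compared, and 22 did not overlap, 44.0%, each with an adjusted p of 0.227. Over all tested genes the same rule gave 22513 transcripts, of which 24.7% did not overlap, and among tested genes that averaged 1 CPM or more it gave 26.7% of 19034.

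Cd63, a tetraspanin of late endosomes, was at 259, 264 and 255 TPM in TKO_2i and 126, 135 and 129.7 TPM in TKO_serum. It was higher in each TKO_2i library (2.16-fold, log2 fold change 1.11, SE 0.06, edgeR adjusted p = 1.38e-06). Npc2, which hands cholesterol to the exporter Npc1, was at 107, 101 and 104 TPM in TKO_2i and 48.3, 46.8 and 47.6 TPM in TKO_serum. The conditions were well apart (2.36-fold, log2 fold change 1.24, SE 0.09, edgeR adjusted p = 5.29e-06). Scarb2, the receptor that brings beta-glucocerebrosidase to the lysosome, went the other way, at 8.83, 9.73 and 8.49 TPM in TKO_2i and 27.1, 30.3 and 28.0 TPM in TKO_serum. Each TKO_2i library was far lower (log2 fold change -1.58, SE 0.05, edgeR adjusted p = 8.89e-08).

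Of the remaining membrane genes, Gpnmb rose by 0.71 on the log2 scale (0.30 in limma on log2(TPM + 1)) beside a median of 0.41 for its chromosome 6. Npc1 rose by 0.22 on the log2 scale (edgeR adjusted p = 0.0274), a call lost without TKO_serum replicate 1 (0.0749) or 3 (0.0936) and in limma on log2(TPM + 1) (0.340). The calcium channel gene Mcoln1 had a log2 fold change of 0.20 and just missed the threshold (edgeR adjusted p = 0.0505), and it was called higher without TKO_2i replicate 1 (0.0335), TKO_2i replicate 2 (0.0386) or TKO_serum replicate 3 (0.0244) and with a replicate block (0.00759). Over the main fit and the refits the log2 fold change of Mcoln1 ran from 0.08 to 0.27. In all, 5 of the 8 membrane, lipid export and channel genes were higher and 1 was lower, beside 31.9% and 30.6% of all tested genes, and their summed level was 922, 960.5 and 913 TPM in TKO_2i against 706, 753 and 721 TPM in TKO_serum.

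Both V-ATPase members, subunits of the pump that acidifies the lysosome, were called lower, beside 30.6% of all tested genes. Atp6v0d1, of the membrane sector, was at 57.4, 61.9 and 58.4 TPM in TKO_2i and 89.1, 92.4 and 90.7 TPM in TKO_serum. Atp6v1h, of the cytosolic sector, was at 45.1, 48.4 and 45.6 TPM in TKO_2i and 66.8, 70.5 and 68.9 TPM in TKO_serum. Neither overlapped, and the log2 fold changes were alike, -0.51 (SE 0.06, edgeR adjusted p = 6.81e-05) and -0.47 (SE 0.05, edgeR adjusted p = 3.97e-05).

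The autophagy members rose or stayed. The log2 fold change was 0.79 for Wipi1, a phosphoinositide-binding protein of the forming autophagosome, 0.66 for the LC3 gene Map1lc3b, 0.41 for its relative Gabarapl1 and 0.37 for the cargo receptor Sqstm1, and all 4 were called higher, beside 31.9% of all tested genes. Wipi1 and Sqstm1 lie on chromosome 11 and Gabarapl1 on chromosome 6, whose medians were 0.26 and 0.41, so the rise of Gabarapl1 did not exceed its chromosome's median at 2 decimals, and it was below the 0.50 of the genes there that averaged 1 CPM or more. Uvrag, a partner of Becn1 in vesicle nucleation and maturation, had -0.07 and was not called. The summed level of the 5 genes was 368, 361 and 357 TPM in TKO_2i and 289, 279 and 290.4 TPM in TKO_serum, without overlap.

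Endoderm genes moved in the direction of the members that fell most, Ctsh, Scarb2 and Ctsf. Of 10 markers of primitive and visceral endoderm, 8 were tested and 7 were lower in TKO_2i, beside 30.6% of all tested genes, with a summed level of 4.90, 6.03 and 5.23 TPM in TKO_2i and 18.9, 22.3 and 24.5 TPM in TKO_serum. Dab2 was the most abundant over the 6 libraries, at 0.191, 0.305 and 0.368 against 5.41, 7.11 and 7.63 TPM, while within TKO_2i Gata4 was, at 2.32, 2.72 and 2.20 TPM. Ttr had no counts in TKO_2i and Afp was at most 0.192 TPM in any library. Their part in the result was not tested.

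Trophoblast markers were mixed, with 2 of 6 higher and 3 lower, beside 31.9% and 30.6% of all tested genes, a summed level of 36.7, 34.4 and 33.0 against 26.8, 27.5 and 25.5 TPM, and Tfap2c as the most abundant, while no defining marker was at 0 throughout. Of 8 fibroblast markers, 4 were tested and 3 were lower, beside 30.6% of all tested genes, with a summed level of 6.45, 7.26 and 6.35 against 12.1, 13.7 and 12.7 TPM. Over the 6 libraries Twist1 led that list, while within TKO_2i Thy1 did, at 3.06, 3.44 and 3.71 TPM, and Col3a1, Dcn, Lum and Postn stayed at or below 0.259 TPM. Of 7 macrophage markers, 3 were tested, 1 of them higher and 1 lower, beside 31.9% and 30.6% of all tested genes, and the summed level of 24.3, 33.4 and 29.6 against 19.6, 22.0 and 23.6 TPM was nearly all Cd68, itself a lysosomal membrane protein. Adgre1, Ptprc, Lyz2 and Tyrobp were at or below 0.0625 TPM in every library. The part of these markers in the result was not tested.

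The other genes of the lysosome and of autophagy, 188 genes in 7 lists, also had more genes higher than lower. Of 179 tested, 87 were higher and 36 lower, beside 31.9% and 30.6% of all tested genes. Among tested genes that averaged 1 CPM or more, 37.9% were higher and 28.8% lower, with a median log2 fold change of 0.07. Their median log2 fold change was 0.15, beside 0.22 for the members, and the difference was not tested. Of 19 tested V-ATPase subunits out of 23, 9 were higher and 3 lower (median 0.12), beside 31.9% and 30.6% of all tested genes, so the fall of both V-ATPase members was not shared by most subunits. Atp6v1c2 rose by 1.60 on the log2 scale from a low level, and Atp6v0a1, of chromosome 11, by 0.78. Atp6v0a4, an isoform known from kidney, fell by 1.69 on the log2 scale on chromosome 6, and the catalytic subunit Atp6v1a fell by 0.65 from 70.5, 77.9 and 72.3 TPM in TKO_serum to 42.0, 47.5 and 39.5 TPM in TKO_2i.

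Of 35 tested hydrolases out of 36 outside the member list, 19 were higher and 7 lower (median 0.22), beside 31.9% and 30.6% of all tested genes. Hyal1, a hyaluronidase, rose by 1.60 on the log2 scale, while the acid lipase Lipa fell by 1.06 and the sulfatase Ids by 0.41. Other lysosomal membrane proteins had the highest median of the lists, 0.40, with 14 of 22 tested higher and 4 lower, beside 31.9% and 30.6% of all tested genes. Laptm5 rose from 26.7, 33.9 and 31.4 TPM in TKO_serum to 58.4, 66.1 and 63.7 TPM in TKO_2i, and its relative Laptm4b fell from 67.9, 75.0 and 70.5 TPM to 35.4, 39.8 and 35.0 TPM. The nucleoside carrier Slc29a3 rose by 1.15 on the log2 scale, and Mfsd8 fell by 0.52.

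Sorting to the lysosome by mannose 6-phosphate gave 5 of 13 genes higher and 3 lower (median 0.04), beside 31.9% and 30.6% of all tested genes. Its share higher was near the 37.9% of tested genes that averaged 1 CPM or more (28.8% lower, median 0.07). The small receptor M6pr was at 167, 176 and 161 TPM in TKO_2i and 97.0, 102 and 96.8 TPM in TKO_serum, a log2 fold change of 0.85 (SE 0.05, edgeR adjusted p = 2.05e-06), on chromosome 6 with its median of 0.41. The larger receptor Igf2r went the other way, with a log2 fold change of -0.31. Sumf1, which activates sulfatases and also lies on chromosome 6, rose by 0.76 on the log2 scale. The alternative sorting receptor Sort1 had the largest fall of any gene named from the 7 lists, from 9.76, 10.8 and 10.1 TPM in TKO_serum to 2.22, 2.69 and 1.98 TPM in TKO_2i (log2 fold change -2.06, SE 0.07, edgeR adjusted p = 1.38e-07).

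Core autophagy gave 23 of 44 genes higher and 11 lower (median 0.16), beside 31.9% and 30.6% of all tested genes. Gabarapl2, the most abundant of them, was at 420.0, 384 and 356 TPM in TKO_2i and 181, 182 and 177 TPM in TKO_serum, and it rose by 1.16 on the log2 scale. The receptor Optn rose by 1.82 on the log2 scale, the mitophagy receptor Bnip3 fell by 1.15 and Rubcn, a brake on autophagosome maturation, by 0.57. In limma on log2(TPM + 1) the higher count of this list was 15 and the lower count 11, beside 23.2% and 32.1% of all tested genes.

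Genes of mTORC1 and its lysosomal sensors gave 12 of 32 higher and 5 lower (median 0.10), beside 31.9% and 30.6% of all tested genes. Itfg2, on chromosome 6, and Mlst8 rose by 0.73 and 0.50 on the log2 scale, and the arginine sensor relative Castor2 and the TSC subunit Tbc1d7 fell by 0.79 and 0.61. In limma on log2(TPM + 1) 4 genes of the list were higher and 6 lower, beside 23.2% and 32.1% of all tested genes. Of 14 genes that act on TFE3 or TFEB, among them kinases, phosphatases and the exporter, 5 were higher and 3 lower (median 0.09). Over all tested genes 31.9% were higher and 30.6% lower (median 0.01). Among those that averaged 1 CPM or more it was 37.9% and 28.8% (median 0.07), and the shares higher of this list and of the mTORC1 list were near that. Akt2 rose by 0.92 on the log2 scale. Gsk3b, a kinase that CHIR99021 inhibits, was at 19.9, 25.5 and 19.4 TPM in TKO_2i and 15.2, 17.0 and 16.3 TPM in TKO_serum. Its log2 fold change was 0.68 (SE 0.08, edgeR adjusted p = 0.000112). The calcineurin subunit Ppp3ca fell by 0.67 and the ERK gene Mapk3 by 0.36.

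**Figure D3:**
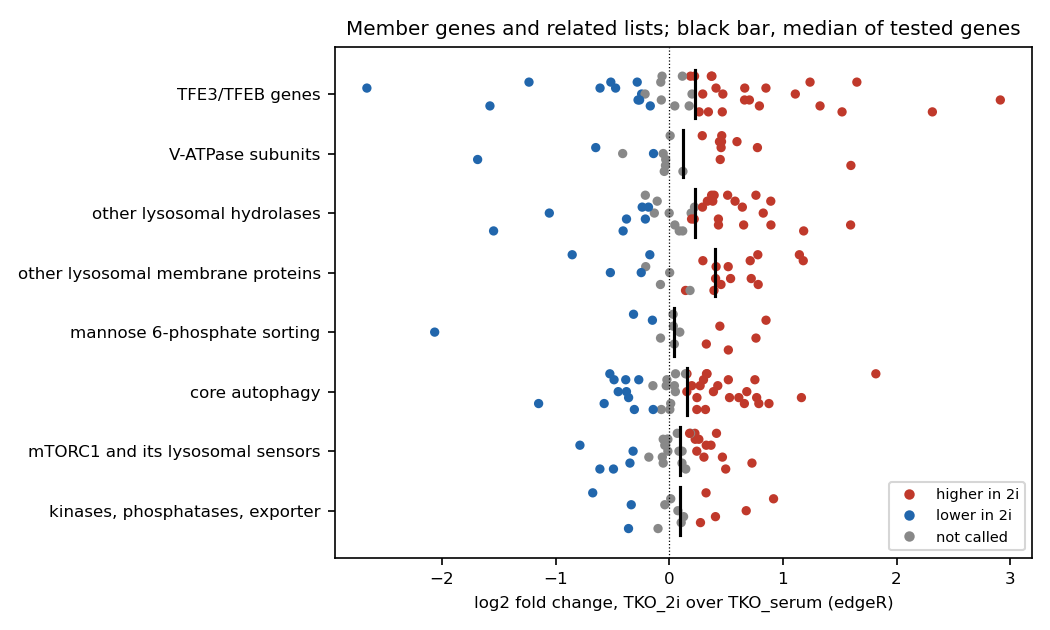
log2 fold change (edgeR, TKO_2i over TKO_serum) of every tested gene of the members and of the 7 related lists; each point is a gene, coloured by its call, and the black bar is the median of the list. Medians run from 0.04 for mannose 6-phosphate sorting to 0.40 for other lysosomal membrane proteins, with genes of both directions in each list.

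The promoters were searched for the letters that MiT factors are known to bind. Many members were listed because they are known targets of these factors, so a high share with a motif is expected from the choice of genes and is no independent evidence. RefSeq promoters on GRCm38.p6, from 250 bases before to 50 after a gene's start, were matched for 36 members. The E-box CACGTG, on either strand, was found for 13 of 36, 36.1%, beside 8.09% of all 27025 genes in the table (7.15% of its 32851 promoters). The longer TCACGTGA, which contains CACGTG, was found for 5 of 36, 13.9%, beside 1.12% of genes, and TCATGTG for 4 of 36, 11.1%, beside 4.31%. None of the promoters of Tfe3, Tfeb and Mitf held any of the 3 motifs.

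CACGTG was found for 4 of 19 matched members that were higher, 4 of 9 that were lower and 5 of 8 that were not called. The median log2 fold change was 0.12 for members with it and 0.37 for members without it. TCACGTGA was found for 2 of 19 higher, 1 of 9 lower and 2 of 8 not called members, with medians of 0.20 with it and 0.26 without it. TCATGTG was found for 3 of 19, 1 of 9 and 0 of 8, with medians of 0.38 and 0.19. No difference between these groups was tested. A match is a description of letters and shows no binding.

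The stretches around the motifs are shown for the members with the largest rises or falls that hold one, Sgsh among the rises and Gaa, Ctsf, Scarb2 and Atp6v0d1 among the falls, and for Lamp1, Ctsa and Gla, chosen after their values were seen because their motifs are clustered, with motif letters in capitals. Sgsh is read from chr11:119355514-119355559 on the minus strand, Gaa from chr11:119267803-119267848 on the plus strand, Ctsf from chr19:4855066-4855111 on the plus strand, Scarb2 from chr5:92505663-92505709 on the minus strand and Atp6v0d1 from chr8:105566041-105566088 on the minus strand. Lamp1 is read from chr8:13159080-13159171 on the plus strand, Ctsa from chr2:164833740-164833820 on the plus strand and Gla from chrX:134601173-134601253 on the minus strand. The promoters follow RefSeq starts, and the stretch of Ctsa lies downstream of chr2:164832873, where its form with the largest share, Ctsa-202, starts.
Sgsh, higher: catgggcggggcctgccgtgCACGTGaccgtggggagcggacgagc
Gaa, lower: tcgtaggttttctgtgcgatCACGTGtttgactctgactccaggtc
Ctsf, lower: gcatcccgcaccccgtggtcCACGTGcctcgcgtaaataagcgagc
Scarb2, lower: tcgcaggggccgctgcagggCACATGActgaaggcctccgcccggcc
Atp6v0d1, lower: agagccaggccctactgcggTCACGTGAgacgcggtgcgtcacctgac
Lamp1, not called: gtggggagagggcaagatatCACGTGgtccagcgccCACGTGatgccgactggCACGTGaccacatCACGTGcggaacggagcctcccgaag
Ctsa, higher: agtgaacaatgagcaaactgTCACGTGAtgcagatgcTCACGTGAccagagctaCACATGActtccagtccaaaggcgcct
Gla, higher: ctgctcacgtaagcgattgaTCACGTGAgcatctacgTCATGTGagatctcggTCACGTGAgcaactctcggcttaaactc
The stretch of Lamp1 holds 4 copies of CACGTG, and those of Ctsa and Gla hold 2 of TCACGTGA and 1 of TCATGTG each, which is printed as its reverse complement for Ctsa and Scarb2. Single E-boxes thus stand before genes that rose and genes that fell, and the member with 4 copies was not called.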

How the data were processed

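The 41 members and the related gene and marker lists were chosen with earlier results of these data known. The authors deposited an estimated count and a TPM value per transcript for each library. The columns are those the quantifier salmon writes; the quantifier, its version and its use of strand are not given in the sources used here, and the submitters' processing notes name the build mm10. Estimated counts were summed per gene with GENCODE M21 names (99.9% of 136288 transcripts matched), rounded, filtered with filterByExpr, scaled by TMM and tested with edgeR 4.0.16 in R 4.3.3 (glmQLFit and glmQLFTest, condition only, Benjamini-Hochberg over 18177 genes). The SE is the absolute log2 fold change over the square root of F. Levels are TPM summed per gene and CPM uses TMM-scaled library sizes. A count of 3 equals 0.0564 to 0.0778 CPM, and such floors cover counting error only. The labels call the replicates biological without naming separate cultures, so p-values measure the spread between these libraries. The method was tested on simulated data in which 200 of 18177 genes were changed. It found 173 of them and made 18 false calls, a share above the nominal threshold. In the real data 62.5% of genes were called, so these rates need not hold there. Transcript shares were compared by exact permutation in scipy. The overlap of shares was also counted over the transcripts of all tested genes that had a share in every library.

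Values per library are given for the MiT, folliculin and Rag genes and the member with the highest TPM. They are also given for the 8 largest rises and 8 largest falls among called members without overlap. Others have at most 1 value except where a call, a range over the refits or a transcript share needed it. From each other list the 2 largest rises and 2 largest falls with a mean CPM of at least 1 are named. The value of 1 gene that this rule names is not reported here. Tfec and the transcripts of Tpp1, Gusb, Ctsb, Asah1, Tfe3, Mitf and Lamp2 were chosen after their values were seen. Alternatives were DESeq2 1.42.0 and its size factors, other count filters, length-scaled TPM counts, limma 3.58.1 on log2 TPM, a replicate block, protein-coding genes only and leaving out each library.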

Additional observations from a re-analysis of the deposited data

How the results depend on the processing

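Across 15 refits, no called member changed its direction in any refit that held it. Ctsh was missing from the refit that asked for at least 10 counts in every library, which held 40 members. Gusb, not called, had a log2 fold change of -0.04 (-0.0401) in limma on log2(TPM + 1) and -0.04 (-0.0415) on log2(TPM + 0.1), and Ctsd, not called, ranged from -0.13 to 0.00987 when 1 library was left out, above 0 without TKO_2i replicate 2. The median log2 fold change of the members was 0.12 in limma on log2(TPM + 1) and 0.12 on log2(TPM + 0.1), where the median over all tested genes was -0.06 and -0.08, and the cause was not tested. Ctsh had the largest fall by counts, while on log2(TPM + 1) it had -1.14 and Scarb2 -1.56. Requiring a fold of at least 2 left 7 members higher and 3 lower, since fewer genes can pass, beside 7.72% and 15.6% of all tested genes. An adjusted p under 0.01 left 20 and 9 members, and the share of all tested genes at that threshold is not given here. Leaving out 1 library gave 20 to 23 members higher and 9 to 12 lower, with medians of 0.22 to 0.26. The calls over all genes in those refits are not given here. DESeq2 called 22 members higher and 11 lower, beside 5486 and 5544 of 34344 genes. That fit did not use the main fit's filter on low counts, so its shares over all genes are not comparable with those over 18177. A fit with a replicate block called 6444 genes higher and 6095 lower, among them 24 and 12 members. The deviations of libraries with the same number correlated at 0.242, 0.329 and 0.014, and those with different numbers at -0.326 to 0.123. All libraries but TKO_2i replicate 3 correlated best with their own number. Whether the same number marks a shared preparation was not tested. Ctsh, with the fewest counts, is the member most limited by depth.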
